A study of Mus musculus with 13 samples.

Results

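The genes described here are 45 mouse genes that cut, protect, fold, hydroxylate or cross-link the extracellular matrix. They were chosen by family and role, with earlier results of these data known. The families are not covered in full, since relatives such as Adam9 and Tll1 stand in a companion list described below. The members make up 45 of the 46958 genes in the deposited table, and 44 of the 16738 genes with enough counts to be tested. P4ha3 was the member removed by the filter on low counts. By role the list holds 9 matrix metalloproteinases, 4 ADAM sheddases, 8 ADAMTS proteases, 5 metalloproteinase inhibitors, 3 genes of plasminogen activation, the serine protease Htra1, 7 genes of collagen folding and hydroxylation, 2 of procollagen processing and 6 cross-linking enzymes.

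The libraries came from glomeruli, the capillary tufts that filter blood in the kidney, isolated on magnetic beads. The mice were 6 months old and of a mixed C57/BL6x129/SVxBALB/c background. There were 4 libraries of the genotype labelled kFRA (LCDD), 4 of DH-LMP2A and 5 of wild type (WT). LCDD stands for light chain deposition disease, in which a monoclonal immunoglobulin light chain deposits in tissue. The labels do not describe the kFRA and DH-LMP2A alleles or say whether LCDD mice carry DH-LMP2A as well. As background, LMP2A is a latent membrane protein of Epstein-Barr virus that replaces B cell receptor signals when it is expressed in B cells. Each library pooled 3 mice, except that WT replicates 3 to 5 were single mice. The sample titles carry a 6-digit code, whose meaning is not stated, with 4 values: LCDD and DH-LMP2A have 1 library under each, WT replicate 1 is under the first, replicate 2 under the third and replicates 3 to 5 under the fourth.

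Matrix metalloproteinases, ADAM and ADAMTS enzymes are zinc proteases that cut collagens, proteoglycans and membrane-bound proteins, and TIMP proteins block them. Plasminogen activators turn plasminogen into plasmin, which cuts fibrin and can activate other proteases. Collagens are hydroxylated and folded inside the cell, trimmed outside it and then joined by lysyl oxidases and transglutaminase, and the balance of building and cutting sets the amount of matrix in the mesangium and the glomerular basement membrane.

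Total counts ran from 16687509 to 30587890 per library. All 8 podocyte markers, such as Nphs1 at 419 to 3624 CPM (counts relative to the TMM-scaled library total), were detected, as were the mesangial markers Pdgfrb and Itga8. The 8 mesangial markers summed to 4231 to 8118 CPM in LCDD, 3121 to 4181 in DH-LMP2A and 3605 to 4444 in WT. The 8 podocyte markers summed to 6876 to 29163 CPM in LCDD, 16020 to 29824 in DH-LMP2A and 15118 to 33141 in WT, with LCDD replicate 1 the lowest library. The 8 macrophage and monocyte markers summed to 83.5 to 223 CPM in LCDD, 65.1 to 187 in DH-LMP2A and 78.0 to 296 in WT. The 8 fibroblast and vessel-wall markers summed to 336 to 1163, 508 to 923 and 449 to 950 CPM in the same order, with Lum at 0 in 6 libraries. All 5 proliferation markers were higher in LCDD than in either other genotype (edgeR, adjusted p under 0.05), against 1.3% of all genes tested in each comparison. The 4 Y-linked genes summed to 0.0820 CPM or less in 4 WT libraries and to 18.2 CPM or more in every LCDD and DH-LMP2A library, so Y-linked RNA and WT genotype can barely be told apart. Since the samples are bulk RNA, fewer cells of a type and less RNA per cell cannot be told apart.

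The start regions below belong to the members called higher in LCDD than in DH-LMP2A, with or without the title code as a block, that had an entry in the RefSeq promoter table of GRCm38.p6. That table matched 28 of the 45 members. Each line gives the 250 bases before the RefSeq start, 5′ to 3′ on the gene's strand. Capitals mark matches on either strand to the TATA box TATAAA, the CCAAT box and the GC box GGGCGG.
Adamts1: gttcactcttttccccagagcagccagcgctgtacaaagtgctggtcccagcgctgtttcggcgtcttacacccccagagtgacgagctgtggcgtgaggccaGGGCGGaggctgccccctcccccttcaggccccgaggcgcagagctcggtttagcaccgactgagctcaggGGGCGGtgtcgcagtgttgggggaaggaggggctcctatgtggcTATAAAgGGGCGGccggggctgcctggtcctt
Mmp12: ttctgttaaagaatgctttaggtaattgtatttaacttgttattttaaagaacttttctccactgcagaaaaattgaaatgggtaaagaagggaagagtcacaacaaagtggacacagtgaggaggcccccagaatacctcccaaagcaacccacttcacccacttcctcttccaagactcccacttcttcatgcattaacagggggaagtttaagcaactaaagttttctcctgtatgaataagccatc
Mmp14: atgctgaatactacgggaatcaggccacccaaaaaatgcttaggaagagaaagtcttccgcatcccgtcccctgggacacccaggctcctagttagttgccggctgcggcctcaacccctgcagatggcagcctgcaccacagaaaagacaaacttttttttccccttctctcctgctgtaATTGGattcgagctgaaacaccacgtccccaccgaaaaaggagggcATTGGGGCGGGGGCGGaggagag

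The Adamts1 window (chr16:85803114-85803363, minus strand) held a TATA box 32 bases before the start and GC boxes 147, 76 and 25 bases before it. The Mmp14 window (chr14:54431348-54431597, plus strand) held the CCAAT box as its reverse complement at 69 and 23 bases, and GC boxes at 19 and 13 bases, with the CCAAT match at 23 sharing 1 base with the GC box at 19 and the 2 GC boxes adjoining. The Mmp12 window (chr9:7344147-7344396, plus strand) held none of these letters, nor the AP-1 motif TGANTCA or the heat shock motif GAANNTTC, which were searched as well. Over all 32536 windows of the table, 33.0% held a GC box, 33.8% a CCAAT box, 12.3% a TATA box, 6.73% the AP-1 motif and 6.72% the heat shock motif. Among the 28 members with an entry, 21 held a GC box, 7 a CCAAT box, 3 a TATA box, 3 the AP-1 motif and 0 the heat shock motif. A match describes these letters and does not show a bound site.

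Levels between genes are compared as FPKM, which here means TMM-scaled CPM per kilobase of exon. Plat, which encodes tissue plasminogen activator, had the highest level, with 1874 ± 791 FPKM in LCDD (SD, n = 4), 1720 ± 158 in DH-LMP2A (n = 4) and 2266 ± 249 in WT (n = 5). Its mean lay at percentile 99.95 of the tested genes. Next came the inhibitor Timp3 with a mean of 370 FPKM over the 13 libraries, the collagen chaperone Serpinh1 with 168, the inhibitor Timp2 with 165 and the protease Htra1 with 148. The most abundant proteases of the metalloproteinase families were Adamts5 (82.0 FPKM) and Adamts1 (80.9 FPKM), followed by Mmp23 (64.5 FPKM). At the other end lay Mmp12 (0.0829 FPKM), Timp4 (0.0972 FPKM), Loxl4 (0.111 FPKM) and P4ha3 (0.123 FPKM). The ratio of the highest to the lowest library was smallest for Plod3 at 1.36, Plod1 at 1.43 and Timp3 at 1.44. It was largest for P4ha3 at 49.5 and Mmp12 at 35.2, both counted in at most 59 reads per library.

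**Figure D1:**
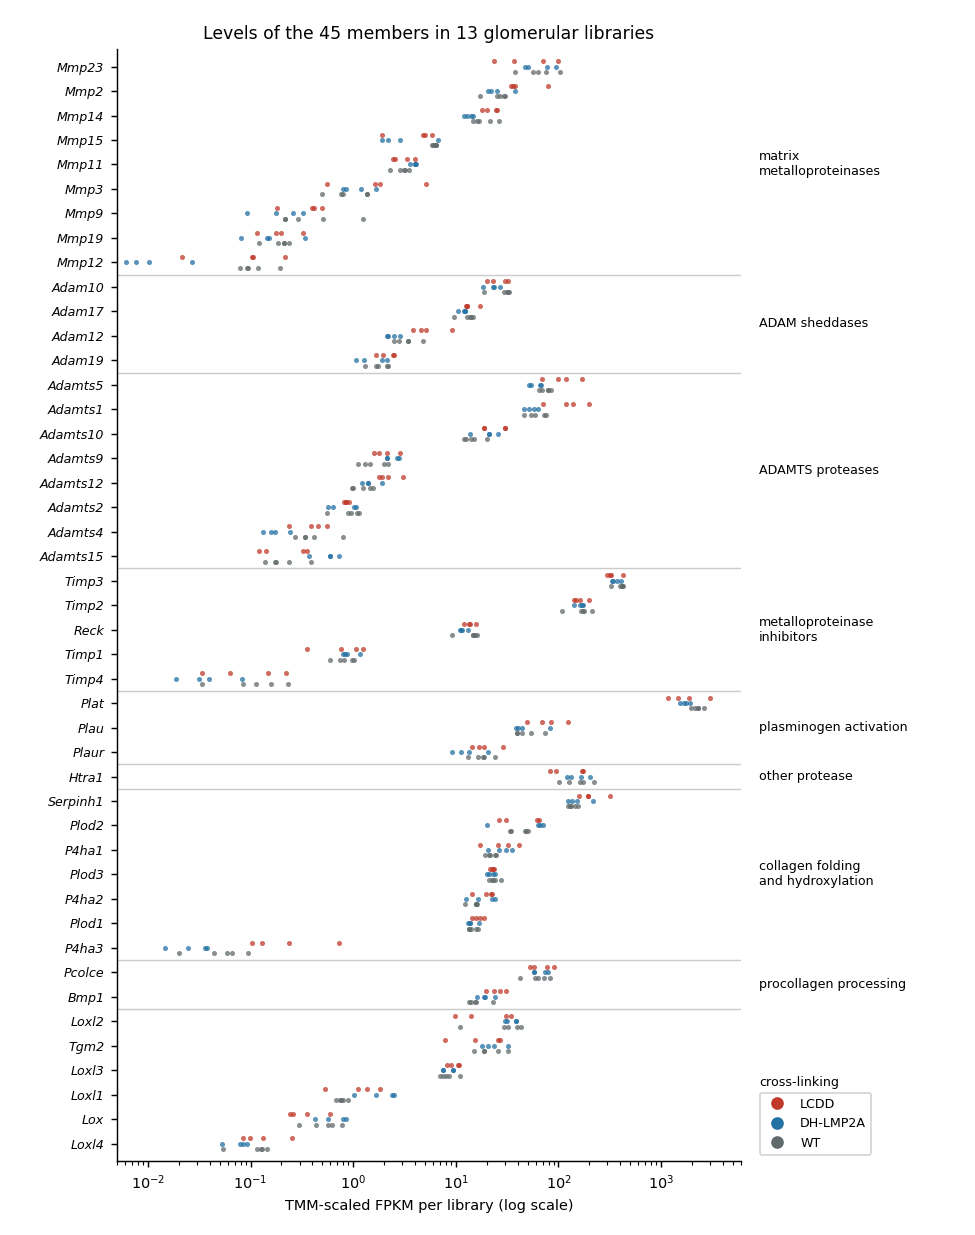
TMM-scaled FPKM (log axis) of each of the 45 members in each of the 13 libraries, 1 point per library, coloured by genotype and grouped by role. Plat lies at 1173 FPKM or more in every library, while Mmp12, Timp4, Loxl4 and P4ha3 lie at 0.726 FPKM or less in all of them.

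Against DH-LMP2A, which shares the title codes with LCDD, all members called were higher in LCDD. Adamts1, Adam12 and Mmp12 were called at an adjusted p under 0.05 (edgeR quasi-likelihood test, adjusted over 16738 genes). That is 3 of 44 members (6.82%), against 2% of all genes tested in either direction and 1.3% higher. Mmp12 passed the filter on low counts only through LCDD and WT libraries, since no DH-LMP2A library held more than 5 counts. Its place among the 3, and among the 7 called with the block as given next, thus depends on the groups where it is high. At an unadjusted p under 0.05 there were 13 of the 44 members, 11 higher and 2 lower, while 13.1% of all genes passed. The median log2 fold change of the members was 0.22, against -0.01 over all genes tested. With the title code as a block, 7 of 44 members were called, all higher (15.9%, against 6.1% of all genes in either direction and 3.24% higher). The block added Adamts5, Mmp14, Adamts4 and Plau, and all 7 were higher in LCDD in each of the 4 pairs of libraries with the same code. The blocked test uses these same pairs, so their shared direction adds no separate support. Members that were not called, such as Adam17, Reck, Plod1 and Loxl4, were also higher in all 4 pairs. P-values measure the spread between these libraries only.

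**Figure D2:**
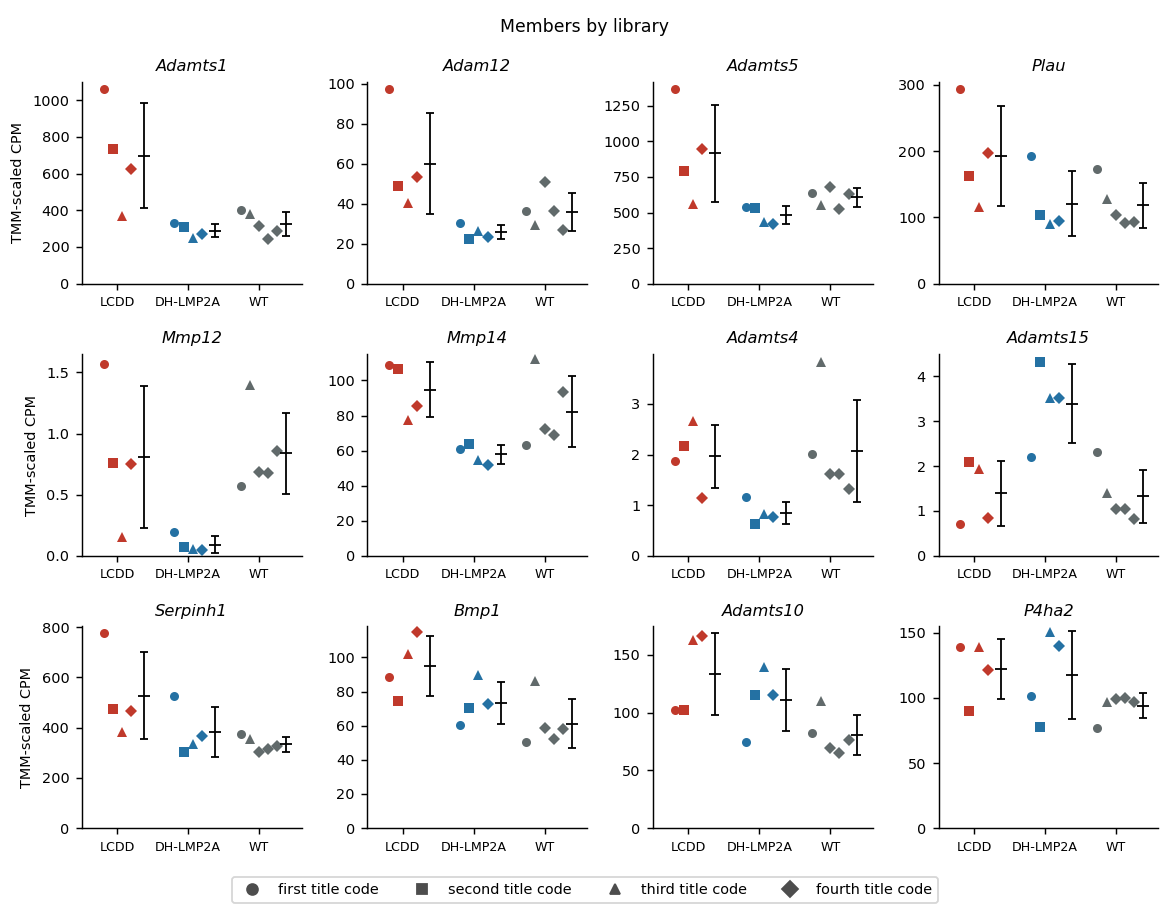
TMM-scaled CPM of 12 members in each library (linear axis from 0). Point shape gives the title code, and the black bar beside each genotype gives the mean and SD of its 4 or 5 libraries. Adamts1, Adam12 and Adamts5 show all LCDD points above all DH-LMP2A points, and Mmp12 and Adamts4 show the lowest mean in DH-LMP2A.

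Mmp12 encodes macrophage elastase. It was counted 42, 20, 3 and 19 times in LCDD replicates 1 to 4, 5, 2, 1 and 1 times in DH-LMP2A and 17, 23, 17, 15 and 21 times in WT. DH-LMP2A was thus low, LCDD replicate 3 fell among its libraries, and LCDD and WT overlapped. Summed over libraries, this came to 0.867 CPM before TMM scaling in LCDD (exact Poisson 95% interval 0.692 to 1.07), 0.0987 in DH-LMP2A (0.0451 to 0.187) and 0.769 in WT (0.620 to 0.942). The ratio of LCDD to DH-LMP2A was 8.79 (95% interval 4.42 to 19.9), and these intervals cover counting error only. In the fit the log2 fold change was 3.07 ± 0.66 (SE; edgeR adjusted p = 0.0322). Mmp12 is known as a gene of macrophages. All 8 macrophage and monocyte markers had a positive log2 fold change in the same comparison, with a median of 0.65. Of these, 0 of 8 were called, against 2% of all genes tested. With the macrophage marker level as a covariate, which was chosen after the data were seen, the log2 fold change was 2.61 (edgeR adjusted p = 0.0451), and with the podocyte marker level it was 2.50 (0.0578). For LCDD against WT, 6 of these 8 macrophage markers were negative (median -0.71), and 0 of 8 were called, against 1.84% of all genes. Mmp12 was at 0.01 on the log2 scale there. The macrophage markers' part in the difference between LCDD and DH-LMP2A was not otherwise tested.

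Mmp14 encodes a membrane-anchored collagenase that also activates pro-MMP2. Its level was 109, 107, 77.2 and 85.6 CPM in LCDD, 60.9, 63.8, 54.9 and 51.7 CPM in DH-LMP2A and 63.2, 112, 72.4, 69.1 and 93.5 CPM in WT. Every LCDD library lay above every DH-LMP2A library. WT overlapped LCDD, and only WT replicate 1 lay under the highest DH-LMP2A library. The log2 fold change against DH-LMP2A was 0.72 ± 0.18 (edgeR adjusted p = 0.0664; 0.0438 with the block). Mmp2, the gelatinase that MMP14 activates, was at 241, 115, 105 and 109 CPM in LCDD, 115, 76.5, 67.5 and 62.2 CPM in DH-LMP2A and 52.2 to 91.3 CPM in WT. Its LCDD replicate 1 stood far above the rest, and the fold change did not pass (0.85 ± 0.29 on the log2 scale; edgeR adjusted p = 0.177). The other metalloproteinases, Mmp3, Mmp9, Mmp11, Mmp15, Mmp19 and Mmp23, had log2 fold changes from -0.33 to 1.03 and none was called. The 9 metalloproteinases had a median of 0.72.

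Adam12 encodes a membrane protease that sheds growth factors. Its level was 97.2, 48.9, 40.5 and 53.5 CPM in LCDD, 30.1, 22.5, 26.5 and 23.2 CPM in DH-LMP2A and 36.3, 29.4, 50.7, 36.1 and 26.6 CPM in WT. LCDD lay above DH-LMP2A in every library, and WT replicate 3 reached into the LCDD range. The log2 fold change was 1.25 ± 0.26 (edgeR adjusted p = 0.0299). The other ADAM members, Adam10, Adam17 and Adam19, which include the main alpha-secretase and the TNF convertase, differed by 0.22 to 0.43 on the log2 scale and were not called.

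Adamts1 and Adamts5 encode aggrecanases, which cut proteoglycans such as versican. They are neighbours on chromosome 16 (chr16:85793827-85803113 and chr16:85858170-85901125, both on the minus strand), 55.1 kb apart with 0 genes of the table between them. Adamts1 was at 1059, 735, 371 and 627 CPM in LCDD, 332, 306, 246 and 273 CPM in DH-LMP2A and 403, 380, 314, 244 and 285 CPM in WT. All LCDD libraries exceeded all DH-LMP2A libraries, and LCDD replicate 3 was the only one below a WT library. The log2 fold change against DH-LMP2A was 1.28 ± 0.27 (edgeR adjusted p = 0.0276). Adamts5 was at 1371, 792, 559 and 949 CPM in LCDD, 541, 531, 433 and 420 CPM in DH-LMP2A and 637, 554, 682, 524 and 633 CPM in WT. The genotypes were ordered in the same way, with a difference from DH-LMP2A of 0.95 ± 0.23 on the log2 scale (edgeR adjusted p = 0.0520; 0.0247 with the block).

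Adamts4, another aggrecanase gene, was at 1.87, 2.16, 2.66 and 1.15 CPM in LCDD, 1.16, 0.631, 0.826 and 0.758 CPM in DH-LMP2A and 2.00, 3.82, 1.62, 1.62 and 1.31 CPM in WT. DH-LMP2A held the low values, with LCDD replicate 4 just under DH-LMP2A replicate 1. The log2 fold change of LCDD against DH-LMP2A was 1.23 ± 0.38 (edgeR adjusted p = 0.140; 0.0375 with the block). Adamts15, also an aggrecanase gene, went the other way: it was at 0.711, 2.09, 1.93 and 0.834 CPM in LCDD, 2.20, 4.31, 3.52 and 3.52 CPM in DH-LMP2A and 0.820 to 2.30 CPM in WT. LCDD and DH-LMP2A did not overlap, but the difference of -1.28 ± 0.42 on the log2 scale was not called (edgeR adjusted p = 0.160; 0.0516 with the block). Adamts12, Adamts10, Adamts2, which trims procollagen at its N terminus, and Adamts9 had log2 fold changes of 0.60, 0.27, 0.07 and -0.20 and were not called.

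The mesangial markers pointed in the same direction as these proteases. All 8 had a positive log2 fold change against DH-LMP2A with a median of 0.57, and 2 of 8 were called (25%, against 2% of all genes tested). All 8 endothelial markers were also positive, with a median of 0.52, while all 8 podocyte markers (median -0.47) and 11 of 12 tubule markers (median -0.69) were negative. Of these, 0 were called without the block. With it, 3 of 8 mesangial markers were called higher and 2 of 8 podocyte markers lower (37.5% and 25%, against 6.1% of all genes), and 0 endothelial or tubule markers. Of 7 fibroblast and vessel-wall markers tested, 5 were negative (median -0.71). There 0 were called without the block, and 1 higher and 1 lower with it. The endothelial markers summed to 5100 to 11744 CPM in LCDD and 3583 to 9713 CPM in DH-LMP2A, and the tubule markers to 625 to 2309 and 1032 to 3779 CPM. The part of the mesangial and endothelial markers in the differences of Adamts1, Adam12 and Adamts5 was not tested. With the podocyte marker level as a covariate, which was chosen after the data were seen, Adamts1 stayed called at a log2 fold change of 0.90 (edgeR adjusted p = 0.0168), while Adam12 (0.99, adjusted p = 0.0575) and Mmp12 (2.50, adjusted p = 0.0578) did not. With the macrophage marker level instead, Adamts1 (1.03, edgeR adjusted p = 0.0582) and Adam12 (1.22, adjusted p = 0.0653) were not called.

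The call of each of the 3 members depended on single libraries. Without LCDD replicate 1 the log2 fold change was 0.999 for Adamts1 (edgeR adjusted p = 0.0626), 0.90 for Adam12 (0.0516) and 2.52 for Mmp12 (0.0890). Leaving out DH-LMP2A replicate 2, 3 or 4 also ended all 3 calls, with adjusted p between 0.0863 and 0.124. Leaving out LCDD replicate 2 ended those of Adamts1 (edgeR adjusted p = 0.0755) and Mmp12 (0.0717), and leaving out LCDD replicate 4 that of Mmp12 (0.0581). In a fit of only these 2 genotypes Adamts1 (edgeR adjusted p = 0.0802) and Adam12 (0.0623) missed the threshold, Mmp12 fell to the filter on low counts and Mmp14 was called (0.0446).

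No inhibitor was called. Timp3, an inhibitor held in the matrix, was at 2638, 3496, 2575 and 2433 CPM in LCDD, 2767, 3003, 2733 and 3308 CPM in DH-LMP2A and 2617, 3414, 3497, 3246 and 3404 CPM in WT. Timp2, which also takes part in the activation of pro-MMP2 by MMP14, was at 581, 633, 553 and 780 CPM in LCDD, 546, 626, 667 and 669 CPM in DH-LMP2A and 425, 832, 696, 652 and 681 CPM in WT. The genotypes overlapped throughout for both genes. Against DH-LMP2A the log2 fold change was -0.07 ± 0.19 for Timp3 (edgeR adjusted p = 0.910) and 0.03 ± 0.20 for Timp2 (0.969). Reck, a membrane-anchored inhibitor, stood at 57.5 to 75.9 CPM in LCDD and 52.4 to 62.4 CPM in DH-LMP2A and was not called (0.25 ± 0.16). Timp1, at 0.318 to 1.10 CPM in LCDD, and Timp4, counted 2 to 34 times per library, were low and not called. None of the 5 inhibitors passed in any comparison, with or without the block. Without the block, 2% of all genes tested passed for LCDD against DH-LMP2A, 1.84% for LCDD against WT and 0.627% for DH-LMP2A against WT. At such shares a count of 0 among 5 genes sets the inhibitors apart from no other genes, and a p above the threshold does not show equal levels.

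In plasminogen activation, Plat was at 2970, 7545, 4728 and 3732 CPM in LCDD, 4861, 3895, 4401 and 4257 CPM in DH-LMP2A and 4937, 5431, 5840, 5820 and 6650 CPM in WT. LCDD held both the lowest and the highest library, and no comparison was called. Plau, which encodes urokinase, was at 293, 162, 116 and 198 CPM in LCDD, 193, 104, 89.4 and 95.1 CPM in DH-LMP2A and 174, 127, 104, 92 and 93.1 CPM in WT. The library of the first title code was the highest in every genotype. The log2 fold change of Plau against DH-LMP2A was 0.70 ± 0.31 without the block (edgeR adjusted p = 0.350) and 0.70 ± 0.16 with it (0.0348). Plaur, the urokinase receptor gene, differed by 0.55 ± 0.26 on the log2 scale and was not called in either fit (edgeR adjusted p = 0.384; 0.0727 with the block). Htra1, at 236 to 497 CPM in LCDD and 351 to 578 CPM in DH-LMP2A, was not called.

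**Figure D3:**
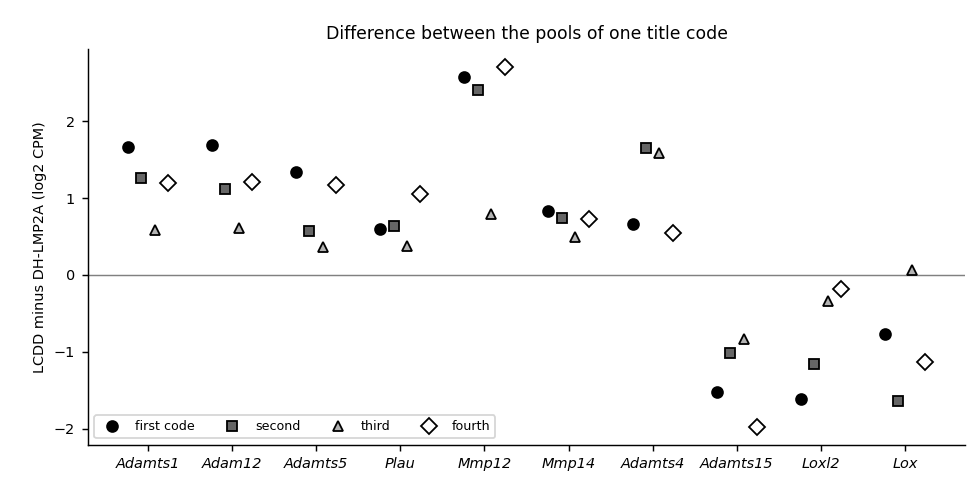
Difference in log2 CPM between the LCDD and the DH-LMP2A library of the same title code, for 10 members. The 7 members called with the block lie above 0 under all 4 codes, and Adamts15 and Loxl2 lie below 0 under all 4, without being called. The blocked test uses these same differences.

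Of the 9 genes of collagen folding, hydroxylation and procollagen processing, 8 passed the filter on low counts. Between LCDD and DH-LMP2A 0 of these 8 were called, against 2% of all genes tested. Serpinh1, the collagen chaperone HSP47, was at 778, 476, 384 and 467 CPM in LCDD, 525, 302, 333 and 368 CPM in DH-LMP2A and 376, 355, 303, 313 and 326 CPM in WT. LCDD overlapped DH-LMP2A and lay above every WT library. Its log2 fold change was 0.48 ± 0.22 against DH-LMP2A (edgeR adjusted p = 0.365) and 0.68 ± 0.21 against WT (0.139). P4ha2, a prolyl 4-hydroxylase subunit, was at 139, 90.0, 139 and 122 CPM in LCDD, 102, 77.9, 150 and 140 CPM in DH-LMP2A and 77.1, 97.2, 99.1, 100 and 97.2 CPM in WT. LCDD and DH-LMP2A overlapped widely, and the log2 fold change of LCDD against WT was 0.41 ± 0.20 (edgeR adjusted p = 0.461). The other hydroxylases tested, P4ha1 for proline and Plod1, Plod2 and Plod3 for lysine, differed between LCDD and DH-LMP2A by -0.26 to 0.22 on the log2 scale.

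P4ha3, a further prolyl hydroxylase subunit, was the rarest of these genes. It was counted 59, 19, 6 and 10 times in LCDD, 3, 2, 2 and 1 times in DH-LMP2A and 4, 1, 5, 4 and 7 times in WT. All DH-LMP2A libraries were at or under a floor of 3 counts per library, and on that floor LCDD was at least 6.92-fold higher. LCDD replicate 1 held most of the counts, and without it LCDD was at least 3.63-fold higher. The ratio of LCDD to WT in summed counts over summed totals was 5.59 (exact 95% interval 3.46 to 9.45, counting error only), and 2.87 (1.62 to 5.18) without LCDD replicate 1. With no filter on low counts, P4ha3 had an edgeR adjusted p of 0.0289 against DH-LMP2A and 0.0768 against WT over 28088 genes. Without LCDD replicate 1 these were 0.0882 and 0.374, so that the call against DH-LMP2A was lost.

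Bmp1, the procollagen C-proteinase, was at 88.3, 74.5, 102 and 115 CPM in LCDD, 60.2, 70.3, 89.8 and 72.5 CPM in DH-LMP2A and 50.5, 85.9, 58.8, 52.3 and 57.8 CPM in WT. WT replicate 2 stood apart from the other WT libraries and reached into the LCDD range. The log2 fold change was 0.38 ± 0.20 against DH-LMP2A (edgeR adjusted p = 0.451) and 0.66 ± 0.19 against WT (0.112). Pcolce, which enhances that cleavage, differed by 0.06 ± 0.23 and 0.15 ± 0.22 on the log2 scale.

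The cross-linking enzymes had a median log2 fold change of -0.46 against DH-LMP2A, with 4 of 6 negative and 0 called, against 2% of all genes tested. Loxl2, the most abundant of them per length, was at 52.7, 76, 167 and 185 CPM in LCDD, 162, 170, 210 and 209 CPM in DH-LMP2A and 59.7, 174, 214, 235 and 158 CPM in WT. The library of the first title code was the lowest in all 3 genotypes, and the difference between LCDD and DH-LMP2A was -0.64 ± 0.42 without the block (edgeR adjusted p = 0.588) and -0.84 ± 0.23 with it (0.0621). Lox was at 1.16, 1.25, 2.87 and 1.71 CPM in LCDD and 2.04, 4.09, 2.75 and 3.84 CPM in DH-LMP2A. The groups overlapped through LCDD replicate 3, and the difference of -0.86 ± 0.37 was not called (edgeR adjusted p = 0.343). Loxl1, Loxl3, Loxl4 and transglutaminase Tgm2 differed by -0.65, 0.20, 0.89 and -0.29 on the log2 scale and were not called.

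Against WT, Adamts1 was the only member called in LCDD without the block (log2 fold change 1.13 ± 0.25, edgeR adjusted p = 0.0342). That is 1 of 44 members (2.27%), near the 1.84% of all genes tested in either direction and the 1.3% called higher. At an unadjusted p under 0.05 there were 10 of the 44 members, all higher, while 7.21% of all genes passed in that direction. The median log2 fold change of the members was 0.12, against 0.01 over all genes. With the title code as a block, Bmp1 (edgeR adjusted p = 0.0147), P4ha2 (0.0296), Adamts1 (0.0376), Adamts10 (0.0383) and Serpinh1 (0.0385) were called higher. That is 5 of 44 members (11.4%), against 3.2% of all genes in either direction. Without the block, Adamts12 (0.87 ± 0.21, edgeR adjusted p = 0.0531), Mmp2 (0.90 ± 0.27, 0.139) and Adamts10 (0.75 ± 0.23, 0.141) had the next smallest p beside Bmp1 and Serpinh1. Adamts10, which takes part in building fibrillin microfibrils, was at 102, 102, 163 and 166 CPM in LCDD, 74.1, 115, 140 and 115 CPM in DH-LMP2A and 82.0, 110, 69.1, 65.5 and 76.3 CPM in WT. Only WT replicate 2 reached the LCDD range. The Adamts1 call was lost with Y-linked expression as a covariate (0.84, edgeR adjusted p = 0.614) and without the single-mouse WT libraries (0.82, 0.634). It was also lost without LCDD replicate 1, 2 or 4, or WT replicate 3, 4 or 5, with adjusted p from 0.0621 to 0.111.

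**Figure D4:**
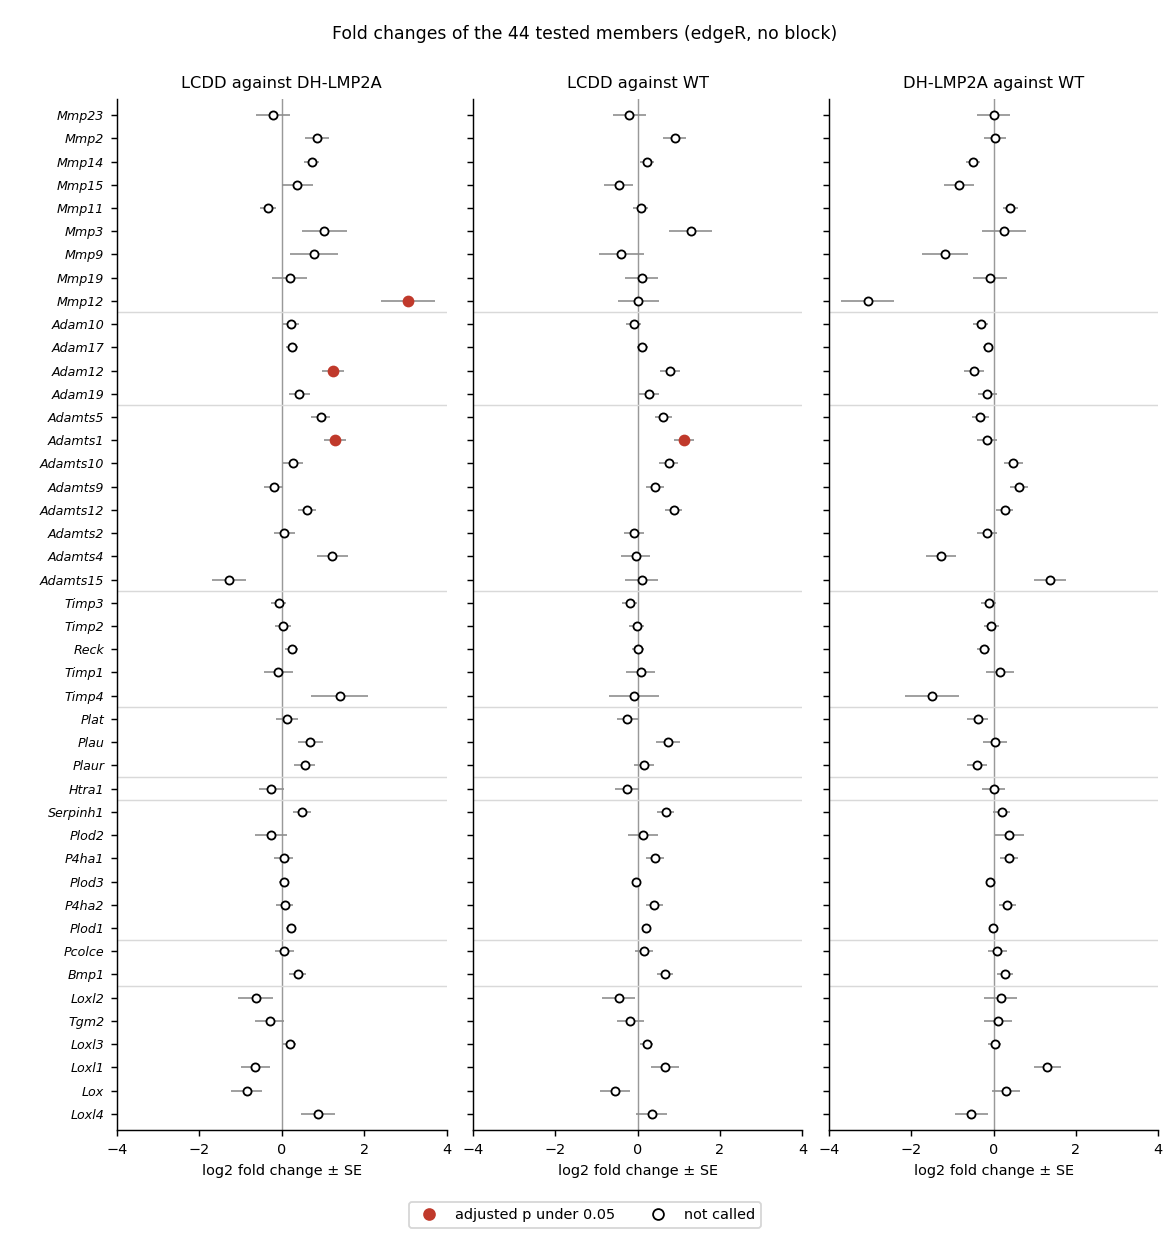
Log2 fold change and SE of the 44 tested members in the 3 genotype comparisons, from the fit without the block, grouped by role. Filled points are called at an adjusted p under 0.05: Adamts1, Adam12 and Mmp12 for LCDD against DH-LMP2A, Adamts1 for LCDD against WT, and none for DH-LMP2A against WT.

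Between DH-LMP2A and WT 0 of 44 members were called by edgeR without the block, against 0.627% of all genes tested. At an unadjusted p under 0.05 there were 9 of the 44 members, 4 higher and 5 lower, while 12.5% of all genes passed. With the title code as a block, Mmp12 (edgeR adjusted p = 0.0430) and Adamts4 (0.0346) were called lower. That is 2 of 44 members (4.55%), against 3.36% of all genes. DESeq2 called 4 of 44, namely Mmp12, Adamts4, Adamts15 and Loxl1, against 2.74% of the 16709 genes to which it gave an adjusted p. Without the block, Mmp12 came nearest in edgeR, with a log2 fold change of -3.06 ± 0.64 (edgeR adjusted p = 0.0528). The ratio of WT to DH-LMP2A was 7.79 in summed counts over summed totals (exact 95% interval 3.93 to 17.6, counting error only). Mmp12 passed the filter on low counts only through LCDD and WT libraries. Its place here and among the DESeq2 and blocked calls thus depends on the groups where it is high. All 8 macrophage markers were also negative in this comparison, with a median log2 fold change of -1.06 and 0 of 8 called. Their part in the Mmp12 difference was examined only as a covariate, which gave -2.46 (edgeR adjusted p = 0.0591). Adamts4 (-1.28 ± 0.37, edgeR adjusted p = 0.167) and Mmp14 (-0.49 ± 0.18, 0.266) were lower as well, without being called in the fit without the block. Loxl1, a lysyl oxidase known for elastic fibres, was at 3.43, 8.02, 5.61 and 8.25 CPM in DH-LMP2A, 2.97, 2.49, 2.67, 2.25 and 2.54 CPM in WT and 1.76, 4.55, 6.11 and 3.69 CPM in LCDD. DH-LMP2A lay above every WT library, with a log2 fold change of 1.31 ± 0.33 (edgeR adjusted p = 0.113). Adamts15 was likewise higher in DH-LMP2A by 1.37 ± 0.39 (edgeR adjusted p = 0.160).

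The 3 comparisons share libraries, so their fold changes are set side by side only. LCDD differed from DH-LMP2A and from WT by 1.28 and 1.13 on the log2 scale for Adamts1, 1.25 and 0.78 for Adam12, 0.95 and 0.63 for Adamts5 and 0.70 and 0.73 for Plau. For Mmp12 the corresponding values were 3.07 and 0.01, for Mmp14 0.72 and 0.23, and for Adamts4 1.23 and -0.05. By genotype means, LCDD was above both others for the first 4 genes, and DH-LMP2A was below both others for the last 3.

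The title code itself changed 8 of 44 members (18.2%, edgeR adjusted p under 0.05), near the 18.6% of all genes tested. These were Mmp23, Plau, Plaur, Htra1, P4ha1, P4ha2, Pcolce and Loxl2.

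A companion list held 59 other matrix protease and collagen-modifying genes, of which 47 were tested. Against DH-LMP2A, 3 were called higher in LCDD and 1 lower (8.51%, against 2% of all genes tested in either direction and 1.3% higher). Serpine2, which encodes protease nexin 1, an inhibitor of urokinase and thrombin, was at 1385 ± 645 CPM in LCDD (SD, n = 4) and 575 ± 171 in DH-LMP2A (n = 4). Its log2 fold change was 1.29 ± 0.30 (edgeR adjusted p = 0.0446), and it is also one of the 8 mesangial markers. Ctsk, the collagen-degrading cathepsin K, differed by 1.48 ± 0.34 (0.0441) and the sheddase gene Adam9 by 0.79 ± 0.18 (0.0383). Tll1, a relative of Bmp1, was lower: it was counted 1 to 3 times in LCDD libraries, 5 to 12 times in DH-LMP2A and 6 to 13 times in WT. Tll1 passed the filter on low counts only through DH-LMP2A and WT libraries, where it is high. On a floor of 3 counts per library it was at least 2.58-fold lower in LCDD than in DH-LMP2A (edgeR adjusted p = 0.0228) and at least 3.28-fold lower than in WT (0.00789). The only companion gene called between DH-LMP2A and WT was Colgalt2, a collagen galactosyltransferase, which was lower in DH-LMP2A (-0.77 ± 0.12, edgeR adjusted p = 0.0157). That is 1 of 47 (2.13%), against 0.627% of all genes tested.

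Of 10 substrate genes, Col5a2, a fibrillar collagen chain, was the one called in LCDD without the block. That is 10% in each comparison, against 2% of all genes tested for DH-LMP2A and 1.84% for WT. It was at 116 ± 35.7 CPM in LCDD, 46.7 ± 5.92 in DH-LMP2A and 35.7 ± 14.4 in WT (SD, n = 4, 4 and 5). The log2 fold changes were 1.33 ± 0.27 against DH-LMP2A (edgeR adjusted p = 0.0233) and 1.74 ± 0.25 against WT (0.00327). The basement membrane chains Col4a1 (1.09 ± 0.27, edgeR adjusted p = 0.0646) and Col4a2 (1.12 ± 0.28, 0.0610) passed against DH-LMP2A with the block (0.0305 and 0.0235). They were also low in DH-LMP2A against WT (-0.91 ± 0.26 and -0.84 ± 0.26), not called there without the block. The substrate list was split for LCDD against DH-LMP2A, with 6 positive and 4 negative log2 fold changes. At an unadjusted p under 0.05 in edgeR without the block, 5 were higher and 1 lower, while 13.1% of all genes passed. With the block 5 were higher and 3 lower, while 3761 of 16738 genes passed. For LCDD against WT, 9 were positive and 1 negative.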

How the data were processed

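Messenger RNA of 13 glomerular libraries was analysed from raw counts per gene deposited by the authors, made with featureCounts per the file headers. The submitters' processing notes name STAR 2.4.0a, Subread 1.5.0-p3, featureCounts, DESeq2 and the build mm10/GRCm38; the annotation, the strand setting and the treatment of reads matching several places are not given in the sources used here, so values of members that overlap genes on the other strand are uncertain. The exon length per gene was used as deposited. All 45 members lay on their GENCODE M21 gene span.

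Counts were scaled by TMM and tested in edgeR 4.0.16 (R 4.3.3, limma 3.58.1) with glmQLFit over all 13 libraries, 1 coefficient per genotype. filterByExpr (minimum count 10) kept 16738 genes, and adjusted p-values are Benjamini-Hochberg values over them. log2 CPM used a prior count of 2. Total counts of 16687509 to 30587890 per library set the precision, and a floor of 3 counts was used for rare genes. The scripts were tested on simulated data. Libraries of one genotype differed beyond counting noise in all 22 pairs (chi-square per degree of freedom 12.6 to 233.9).

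Deviations from genotype means of LCDD and DH-LMP2A libraries with the same title code correlated by 0.15 to 0.59 in all 4 pairs (mean 0.42). Those with different codes correlated by -0.60 to 0.52 (mean -0.14). LCDD replicate 2 correlated better with DH-LMP2A replicate 1 (0.52) than with the library of its own code (0.15). The code thus pairs them in part at most, and blocked results are given beside those without the block where a member's call changed. The members, lists and tests were chosen with earlier results of these data known. Values in every library are given for members called in any comparison with or without the block, for the 4 members of highest FPKM and for further members chosen after their values were seen (Mmp2, Adamts15, Lox, Loxl1, Loxl2, P4ha3). Companion genes named are up to 3 called per direction and comparison; 1 that met this rule is not reported here. Alternatives were DESeq2 1.42.0, RLE size factors, other filters, fits of 2 genotypes, the block, marker covariates and leaving out libraries; those with the macrophage or podocyte level, or without the lowest title code, and P4ha3 without LCDD replicate 1, were chosen after the data were seen.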

Additional observations from a re-analysis of the deposited data

Results flagged for a closer look

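Of 51 groups of values looked at, 4 held a library lying apart from its group; by chance about 1 group in 20 does (2.55 here). LCDD replicate 3 had 18604929 total counts, against 25276700 to 26544400 in the other LCDD libraries. The libraries that share its title code, DH-LMP2A replicate 3 (17274426) and WT replicate 2 (16687509), were also the lowest of their genotypes, without being flagged. Bmp1 stood at 6.43 log2 CPM in WT replicate 2, against 5.66 to 5.88 in the other WT libraries. P4ha2 stood at 6.27 log2 CPM in WT replicate 1, against 6.60 to 6.65 in the others. Timp3 stood at 11.4 log2 CPM in the same library, against 11.7 to 11.8.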

How the results depend on the processing

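The single-member values listed for the alternatives kept their direction in each one run, while the number of members called moved. The share of all genes called under the same setting stands in brackets. For LCDD against DH-LMP2A, 3 members were called (2%). There DESeq2 called 5 (4.86%), a fit of only these genotypes 1 (1.31%), the replicate block 7 (6.1%), the tubule covariate 8 (7.26%), the Y-linked covariate 5 (2.21%), the macrophage covariate 1 (1.62%) and the podocyte covariate 1 (2.29%), and leaving out each library in turn gave 0 to 5 (0.667% to 2.86%). For LCDD against WT, 1 member was called (1.84%). DESeq2 called 4 (4.34%), the replicate block 5 (3.2%), the tubule covariate 2 (2.5%), block and tubule covariate together 3 (2.55%), the macrophage covariate 3 (4.12%) and the podocyte covariate 2 (2.3%). Keeping genes with a mean from 5 CPM up (0.999%), fitting only these genotypes (1.14%), the Y-linked covariate (0.137%), no single-mouse WT libraries (0.312%) and no lowest title code (1.84%) each gave 0, and leaving out each library gave 0 to 2 (0.953% to 2.65%). For DH-LMP2A against WT, 0 were called (0.627%). DESeq2 called 4 (2.74%), a fit of only these genotypes 1 (0.472%), the replicate block 2 (3.36%), the tubule covariate 3 (5.51%), block and tubule covariate together 1 (1.58%), no lowest title code 4 (2.35%) and the podocyte covariate 2 (5.27%), and leaving out each library gave 0 to 2 (0.171% to 2.45%). The cause of these changes was not tested. In the pairs with WT the title code did not correlate in every pair (-0.16 to 0.40 with LCDD, -0.16 to 0.57 with DH-LMP2A). There, as between LCDD and DH-LMP2A, not every library correlated best with its own code. The libraries of the pairs with WT are thus taken to share only a number. The block called Serpinh1, Bmp1, P4ha2, Adamts1 and Adamts10 for LCDD against WT and Mmp12 and Adamts4 for DH-LMP2A against WT. The count of all genes called rose with the block from 334 to 1021, from 308 to 536 and from 105 to 562 in the same order. Among single members, 218 values stayed on their side of the threshold, 35 passed it, 36 lost it and 0 reversed. The members' median log2 fold change moved past the spread between libraries once, to -0.36 for DH-LMP2A against WT with the Y-linked covariate. Rare genes such as Mmp12 and P4ha3 are limited by depth.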
